A study of Mus musculus with 24 samples.

Results

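The genes of DNA methylation and of the TET enzymes were followed in RNA-seq of differentiating mouse embryonic stem cells (mESCs). They were chosen by name, as the entries of the deposited gene table that carry the symbols *Dnmt1*, *Dnmt3a*, *Dnmt3b*, *Dnmt3l*, *Uhrf1*, *Tet1*, *Tet2*, *Tet3* and *Tdg*, and all 9 were found among its 25965 entries. All 9 were among the 13296 entries tested, those with a mean of at least 0 on the log2 scale of rpm (reads per gene scaled to the same number of reads in every library).

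A cytosine followed by a guanine (CpG) can carry a methyl group, which is copied to the new strand at each DNA replication by DNMT1, brought to half-methylated sites by UHRF1, and is written anew by DNMT3A and DNMT3B, whose catalytically inactive relative DNMT3L binds and stimulates them. The TET enzymes oxidise the methyl group, and the glycosylase TDG removes the further oxidised bases so that base excision repair can restore an unmodified cytosine. Naive mESCs hold little DNA methylation and gain it as they leave the naive state, when silencing of germline genes by promoter methylation is completed.

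The study measured RNA in a male C57/Bl6 mESC line during differentiation, with hairpins (shRNA) against the chromatin remodelling subunits *Smarcc1* or *Smarca4* or with a nonsilencing control (Nons). Cells grown in 2i were weaned into serum medium, transduced with a virus carrying the shRNA on day 2, selected with puromycin on day 3 and harvested on day 4, 5, 6 or 7. The *Smarcc1* knockdown group held 8 libraries (hairpins Smarcc1.6 and Smarcc1.7, 4 days each), the *Smarca4* knockdown group 8 (Smarca4.4 and Smarca4.6) and Nons 4, all of 1 series; 4 further Nons samples were not analysed here. The genotype label of the *Smarca4* libraries reads Smarcc knockdown, and the sample titles, which name Smarca4, were followed. Each group and day thus had 1 library per hairpin, and the replicates of a knockdown were its 2 hairpins. Every comparison with Nons on a day rested on 1 Nons library, so the spread between Nons cultures was not measured. All libraries came from cells that had been transduced and selected, and a hairpin lowers a transcript without removing it.

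The strand of each hairpin that is loaded to find its target is shown 5′ to 3′, with its seed (bases 2 to 8) in capitals, because these sequences define the knockdown groups. They were taken out of the full hairpins that the study lists.
Smarcc1.6: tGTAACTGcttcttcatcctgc
Smarcc1.7: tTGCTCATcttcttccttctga
Smarca4.4: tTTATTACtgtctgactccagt
Smarca4.6: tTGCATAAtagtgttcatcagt
Each matched its target exactly over 21 bases, in coding sequence of *Smarcc1* for Smarcc1.6 and Smarcc1.7, in coding sequence of *Smarca4* for Smarca4.6 and in the 3′ UTR of *Smarca4* for Smarca4.4. Among 141767 GENCODE transcripts, each of the 4 matched those of 1 gene, its target, and the Nons hairpin matched none. No transcript of a DNA methylation or TET gene held an exact match over these 21 bases.

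The libraries held 6829596 to 27472885 reads, with a median of 19256702.5 in Nons, 21756651.5 in *Smarcc1* knockdown and 17787889 in *Smarca4* knockdown. The smallest was Smarca4.4 on day 5, with 6829596 reads, and the next had 15717152. A floor of 3 reads was worth 0.109 to 0.439 rpm, and the lowest value of any of the 9 genes was 7.95 rpm (*Tet3* in Nons on day 6), so no value was near it. Such floors cover counting error only.

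The libraries differed in how long and short genes were represented. For each library the deviations of genes from their mean over all libraries were compared between the 25% with the longest exon length (from 6755 bases) and the 25% with the shortest (up to 2700 bases). The median deviation of long genes minus that of short genes was -0.50 in Nons on day 6, -0.67 and -0.55 in Smarcc1.6 on days 5 and 6, and -0.76 and -0.44 in Smarca4.6 on days 5 and 6, on the log2 scale. Nons on day 5 was at -0.15, and the other 14 libraries lay between 0.025 and 0.48. Long genes were therefore low in Nons but not in Smarcc1.7 or Smarca4.4 on day 6, and low in Smarcc1.6 and Smarca4.6 but less so in Nons on day 5. Several of the 9 genes are long (*Tet1* 15288, *Tet3* 11817, *Dnmt3a* 11484 and *Tet2* 9298 exon bases), and their values moved with this measure. After the mean of the day was subtracted, Pearson's r with it over 20 libraries, which share 5 series, was 0.835 for *Tet1*, 0.828 for *Tet3*, 0.792 for *Dnmt1*, 0.662 for *Uhrf1*, 0.629 for *Tet2*, 0.568 for *Dnmt3b*, 0.554 for *Dnmt3a*, 0.455 for *Tdg* and 0.187 for *Dnmt3l*. Results below are therefore also given without days 5 and 6, or after each library was corrected for its trend with exon length, both chosen after seeing the data.

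**Figure D1:**
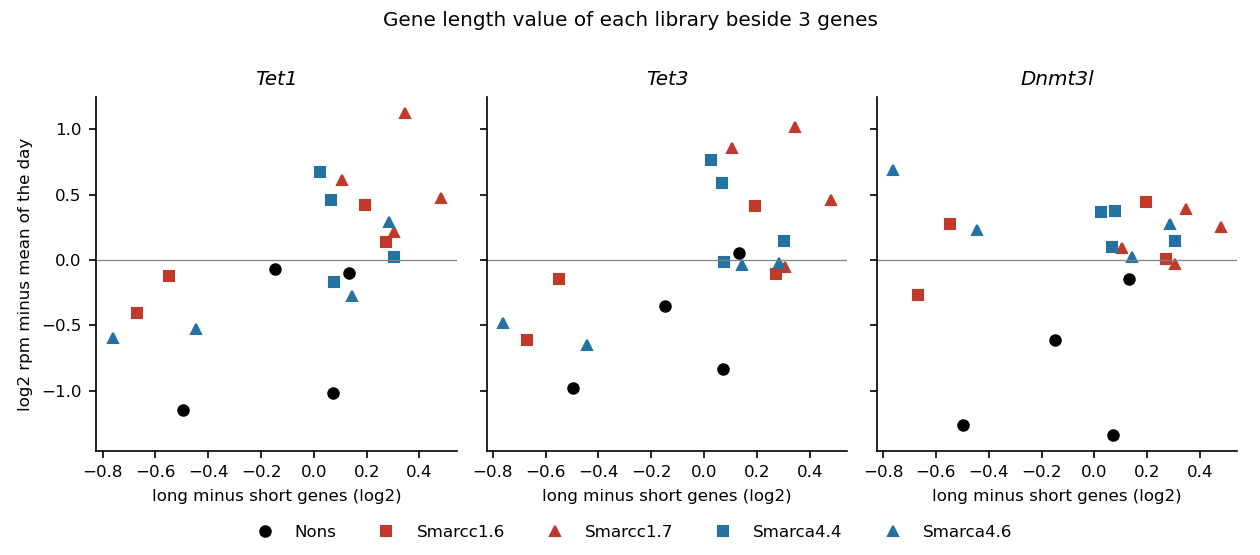
For each of 20 libraries, the x axis gives the median log2 deviation of the longest 25% of genes minus that of the shortest 25%, the y axis the log2 rpm of *Tet1*, *Tet3* or *Dnmt3l* minus the mean of its day. *Tet1* and *Tet3* were low in the libraries with low values of long genes (r = 0.835 and 0.828), while *Dnmt3l* followed this measure less (r = 0.187).

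In the sentences below, the value of Smarcc1.6 comes before that of Smarcc1.7 and the value of Smarca4.4 before that of Smarca4.6. *Smarcc1* in Nons measured 451 rpm on day 4, 259.8 on day 5, 127 on day 6 and 172 on day 7. In *Smarcc1* knockdown it measured 163 and 192 rpm on day 4, 61.5 and 109 on day 5, 43.6 and 76.4 on day 6 and 71.5 and 80.9 on day 7. On each day both hairpins were below Nons, with a log2 change of -1.33 ± 0.21 (adjusted p = 0.00115); here and below the value after ± is the standard error. *Smarca4* in Nons measured 222 rpm on day 4, 151 on day 5, 90.4 on day 6 and 160.3 on day 7. In *Smarca4* knockdown it measured 56.0 and 62.9 rpm on day 4, 49.5 and 36.3 on day 5, 50.0 and 19.5 on day 6 and 42.2 and 43.6 on day 7. Both hairpins were again below Nons on each day, with a log2 change of -1.79 ± 0.29 (adjusted p = 0.00277); the adjusted p was 0.0685 when Smarca4.6 was left out and 0.0558 when day 7 was.

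The first question was how the 9 genes moved with the days, averaged over the 3 groups. From day 4 to day 7, 7 of 9 fell, against 64.5% of all genes tested called in either direction (adjusted p under 0.05), and 0 rose. The median log2 change of the 9 was -1.74, beside 0.083 over all genes tested, where 4749 rose and 3826 fell. Centring on the median gene moved the median of all genes to -0.093, and the share of higher genes among those called from 55.4% to 46.1%; for day 7 against day 6 the median moved from 0.15 to -0.048. The falls of the 7 genes were called under all 13 alternatives. From day 4 to day 5, 6 of 9 fell (38.7% of all genes called), from day 5 to day 6, 7 of 9 fell (32.3%), and from day 6 to day 7, 2 of 9 fell (27.5%). In bulk RNA, fewer cells of a type and less RNA per cell cannot be told apart.

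The second question was the effect of each knockdown, averaged over days. In *Smarcc1* knockdown 3 of 9 were higher than in Nons, against 10.6% of all genes tested called, and 0 lower. In *Smarca4* knockdown 1 of 9 was higher, against 6.71%, and 0 lower. With each series as a block, *Dnmt3a* (adjusted p = 0.0583) and *Tet2* (0.216) were no longer called in *Smarcc1* knockdown. This left *Dnmt3l* as 1 of 9 in each knockdown. The genes called among all tested then numbered 605 in *Smarcc1* and 258 in *Smarca4*. The median log2 change of the 9 was 0.63 in *Smarcc1* knockdown and 0.41 in *Smarca4* knockdown, beside 0.064 and 0.064 over all genes tested. Among all genes called, 71.0% were higher in *Smarcc1* knockdown and 70.7% in *Smarca4* knockdown. With quantile normalization these shares were 53.7% and 52.9%, and with the correction for exon length 56.3% and 56.8%. With centring on the median gene they were 64.2% and 60.5%, so the size of the excess of higher genes depended on the scaling. Both knockdowns were compared with the same Nons libraries, so a Nons library that was high or low moves both. Directly between the knockdowns, 1 of 9 (*Dnmt3a*) differed, against 4.09% of all genes tested. With series as blocks it was 0 of 9 (adjusted p of *Dnmt3a* = 0.152), and the genes called fell from 544 to 105.

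**Figure D2:**
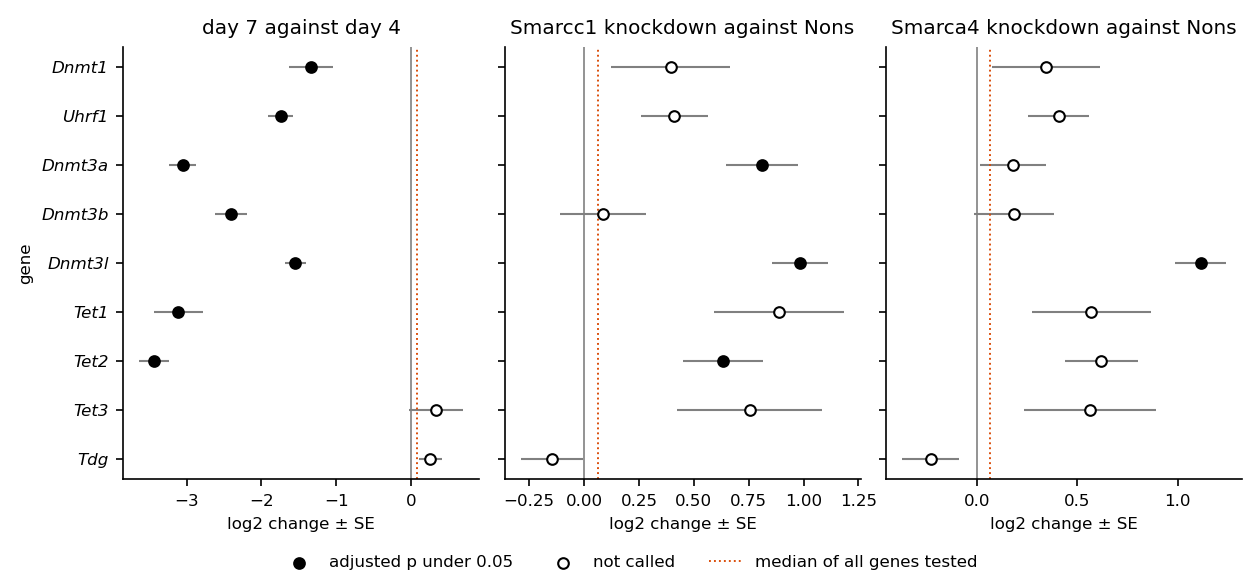
Log2 change with its standard error for the 9 genes in 3 comparisons, from the fit to 20 libraries; filled points had an adjusted p under 0.05, and the dotted line is the median of all genes tested. From day 4 to day 7 the log2 changes of the 7 genes that fell lay between -3.43 and -1.34, and *Dnmt3l* was higher in both knockdowns.

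Of the maintenance genes, *Dnmt1* encodes the methyltransferase that copies the mark at replication. In Nons it measured 271 rpm on day 4, 133 on day 5, 54.5 on day 6 and 105 on day 7. The *Smarcc1* hairpins gave 356 and 335 rpm on day 4, 79.6 and 213 on day 5, 70.1 and 135 on day 6 and 143 and 136 on day 7. The *Smarca4* hairpins gave 326 and 286 rpm on day 4, 178 and 147 on day 5, 136 and 59.5 on day 6 and 126 and 113 on day 7. The series therefore diverged on days 5 and 6 and came together on day 7: it fell on average (-1.34 ± 0.30, adjusted p = 0.00147 from day 4 to day 7), and within each of the 5 series day 7 was 38.7% to 40.7% of day 4. Lowest on day 6 were Nons, Smarcc1.6 and Smarca4.6, the 3 libraries of that day with low values of long genes. Neither knockdown passed the test, with log2 changes of 0.39 ± 0.27 (adjusted p = 0.436) for *Smarcc1* and 0.34 ± 0.27 (adjusted p = 0.537) for *Smarca4*. Without days 5 and 6 the change in *Smarcc1* knockdown was 0.38 (adjusted p = 0.00847). The fall from day 4 to day 5 was -1.12 ± 0.30 (adjusted p = 0.0109) and missed the threshold without Smarca4.6 (adjusted p = 0.0592). The fall from day 5 to day 6, -0.85 ± 0.30 (adjusted p = 0.0429), missed it without Smarca4.4 on day 5 (0.0866), without Smarca4.4 altogether (0.0810) or without Smarca4.6 (0.197). From day 6 to day 7 the change was 0.63 ± 0.30 (adjusted p = 0.122), and 0.80 (adjusted p = 0.0369) without Smarcc1.7.

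*Uhrf1* encodes the protein that brings DNMT1 to half-methylated CpGs. In Nons it measured 525 rpm on day 4, 194 on day 5, 105 on day 6 and 126 on day 7. With Smarcc1.6 and Smarcc1.7 it was at 594 and 572 rpm on day 4, 172 and 267 on day 5, 142 and 197 on day 6 and 209.6 and 194 on day 7. With Smarca4.4 and Smarca4.6 it was at 569 and 538 rpm on day 4, 267 and 234 on day 5, 209 and 135 on day 6 and 190.3 and 168 on day 7. On days 6 and 7 all 4 hairpin libraries were above Nons, and on day 5 only Smarcc1.6 was below it. It fell from day 4 to day 7 with a log2 change of -1.74 ± 0.17 (adjusted p = 1.41e-06), most of it by day 5 (-1.34 ± 0.17, adjusted p = 8.72e-05). The fall from day 5 to day 6 was -0.61 ± 0.17 (adjusted p = 0.0152), with an adjusted p of 0.0888 without Smarca4.6. Against Nons, the log2 change was 0.41 ± 0.15 (adjusted p = 0.122) in *Smarcc1* and 0.41 ± 0.15 (adjusted p = 0.156) in *Smarca4* knockdown, neither past the threshold; without days 5 and 6 both were called, at 0.41 (adjusted p = 0.00452) and 0.29 (adjusted p = 0.0379). *Dnmt1* and *Uhrf1* moved together over the 20 libraries (Pearson's r = 0.952), the closest pair among the 9 genes, and per kilobase of exon *Dnmt1* was 0.262 to 0.495 times *Uhrf1*.

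**Figure D3:**
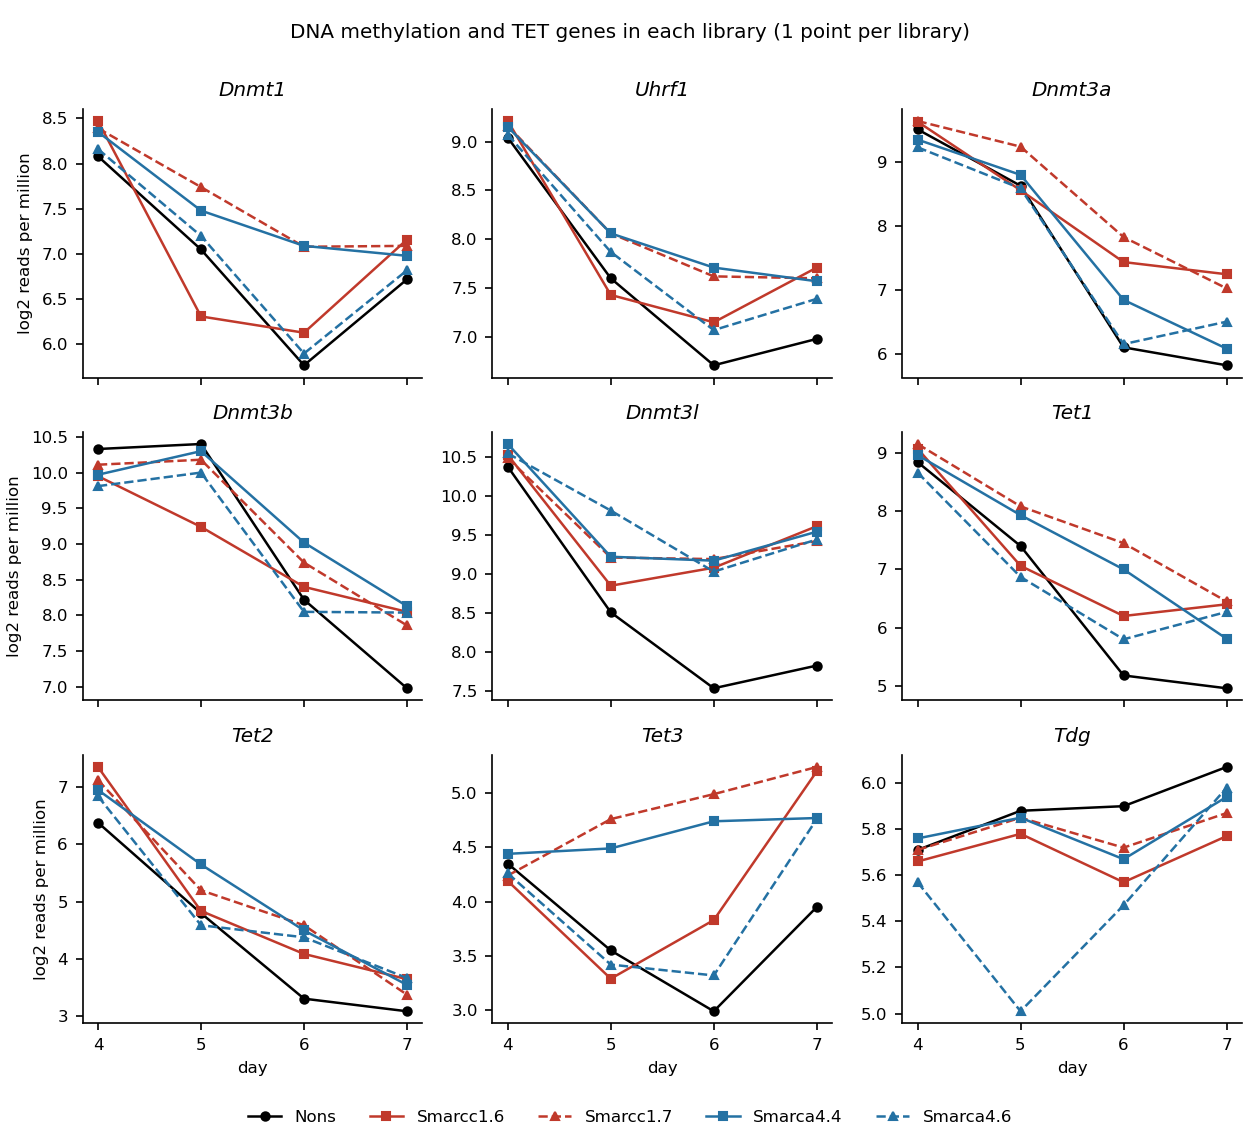
Log2 rpm of the 9 genes on days 4, 5, 6 and 7, 1 point per library and 1 line per series (Nons, 2 hairpins against *Smarcc1* and 2 against *Smarca4*). Most genes fell with the days, *Tet3* and *Tdg* did not, and *Dnmt3l* stayed higher in all 4 hairpin series than in Nons.

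Among the genes for new methylation, *Dnmt3a* encodes an active methyltransferase. In Nons it measured 729 rpm on day 4, 396 on day 5, 68.9 on day 6 and 57.0 on day 7. In *Smarcc1* knockdown it measured 795 and 799 rpm on day 4, 378 and 603 on day 5, 174 and 227 on day 6 and 153 and 131 on day 7. In *Smarca4* knockdown it measured 654 and 599 rpm on day 4, 445 and 384 on day 5, 115 and 71.6 on day 6 and 68.3 and 90.9 on day 7. The 5 libraries were close on day 4, and on days 6 and 7 both *Smarcc1* hairpins were above Nons and above both *Smarca4* hairpins. It fell from day 4 to day 7 (-3.05 ± 0.18, adjusted p = 2.12e-08). Day 7 was 7.82% of day 4 in Nons, 16.4% to 19.2% in *Smarcc1* knockdown, 10.4% in Smarca4.4 and 15.2% in Smarca4.6. The contrast of this change with that in Nons was 1.18 ± 0.47 (adjusted p = 0.474) in *Smarcc1* and 0.69 ± 0.47 in *Smarca4* knockdown, neither called. The fall from day 4 to day 5 (-0.74 ± 0.18, adjusted p = 0.00674) was -0.34 (adjusted p = 0.0718) after the length correction, and from day 6 to day 7 the change of -0.32 ± 0.18 (adjusted p = 0.183) became -0.74 (adjusted p = 0.00240); centring on the median gene gave -0.52 (adjusted p = 0.0226).

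Averaged over days, *Dnmt3a* was higher in *Smarcc1* knockdown than in Nons, with a log2 change of 0.81 ± 0.16 (adjusted p = 0.00672), in 7 of 8 libraries. Mean differences from same-day Nons on days 4 to 7 were 0.13, 0.27, 1.53 and 1.31 on the log2 scale. The call held in 15 of 18 alternatives (adjusted p 0.00142 to 0.151). It was lost when each series was treated as a block (0.81, adjusted p = 0.0583), without day 6 (0.57, adjusted p = 0.0664) and without day 7 (0.64, adjusted p = 0.151). Without days 5 and 6 together the call held, at 0.72 (adjusted p = 0.00142). In *Smarca4* knockdown the change was 0.18 ± 0.16 (adjusted p = 0.613), not called, with 5 of 8 libraries above Nons. The difference between the knockdowns was 0.63 ± 0.13 (adjusted p = 0.0200), the only one of the 9 genes called there. It rested on all the libraries: the adjusted p was 0.152 with series as blocks, 0.0617 without day 4, 0.125 without day 6, 0.253 without day 7, and 0.0801 to 0.216 when 1 hairpin was left out, while the log2 change was 0.47 to 0.77 over the 18 alternatives.

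*Dnmt3b*, the other active enzyme for new methylation, measured 1283 rpm on day 4, 1349 on day 5, 299 on day 6 and 126 on day 7 in Nons. The *Smarcc1* hairpins gave 992 and 1108 rpm on day 4, 604 and 1159 on day 5, 339 and 428 on day 6 and 266 and 232 on day 7. The *Smarca4* hairpins gave 1004 and 898 rpm on day 4, 1257 and 1025 on day 5, 521 and 265 on day 6 and 280.1 and 263 on day 7. All 4 hairpin libraries were below Nons on days 4 and 5, and all 4 were above it on day 7. *Dnmt3b* did not pass the test from day 4 to day 5 (0.00086 ± 0.22, adjusted p = 0.998) and fell later, with a log2 change of -1.64 ± 0.22 (adjusted p = 0.000141) from day 5 to day 6 and -0.77 ± 0.22 (adjusted p = 0.0211) from day 6 to day 7; the last was -0.62 (adjusted p = 0.0954) without Smarca4.4 and -0.92 (adjusted p = 0.0551) without Smarca4.6. Over days 4 to 7 it fell to 9.83% of its day 4 value in Nons and to 20.9% to 29.3% in the 4 hairpin series. Because lower values early met higher values late, the averages over days were near 0, 0.086 ± 0.20 (adjusted p = 0.832) in *Smarcc1* and 0.18 ± 0.20 (adjusted p = 0.673) in *Smarca4* knockdown, and their sign changed with the setting. Without days 5 and 6 both were called, at 0.34 (adjusted p = 0.0193) and 0.34 (adjusted p = 0.0344). The contrasts of the change from day 4 to day 7 with that in Nons were 1.27 ± 0.56 (adjusted p = 0.594) and 1.54 ± 0.56 (adjusted p = 0.842), not called; Nons on day 7, 126 rpm, was 1 library.

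*Dnmt3l*, the inactive partner, gave the knockdown result that depended least on the processing. In Nons it measured 1320.2 rpm on day 4, 365 on day 5, 186 on day 6 and 228 on day 7. With Smarcc1.6 and Smarcc1.7 it was at 1465 and 1433 rpm on day 4, 461 and 591 on day 5, 543 and 582 on day 6 and 784 and 684 on day 7. With Smarca4.4 and Smarca4.6 it was at 1619 and 1494 rpm on day 4, 595 and 895 on day 5, 576 and 522 on day 6 and 743 and 694 on day 7. Every hairpin library was above Nons of its day, and on days 6 and 7 the 4 hairpin libraries lay close together, between 522 and 784 rpm. Averaged over days, the log2 change was 0.98 ± 0.13 (adjusted p = 0.000326) in *Smarcc1* and 1.11 ± 0.13 (adjusted p = 0.000394) in *Smarca4* knockdown, higher in 8 of 8 libraries of each. Both were called in 18 of 18 alternatives, at 0.75 to 1.27 and 0.93 to 1.41, with adjusted p-values of at most 0.0370 and 0.0282. Without days 5 and 6 the changes were 0.91 (adjusted p = 0.000104) and 0.95 (adjusted p = 0.000222), and after the length correction 0.94 (adjusted p = 7.91e-05) and 1.05 (adjusted p = 0.000127).

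The same-day differences of *Dnmt3l* grew with the days, with means on days 4, 5 and 7 of 0.13, 0.52 and 1.69 in *Smarcc1* and 0.24, 1.00 and 1.66 in *Smarca4* knockdown, on the log2 scale. Its fall from day 4 to day 7 averaged -1.54 ± 0.14 (adjusted p = 7.24e-07); day 7 was 17.2% of day 4 in Nons and 45.9% to 53.5% in the hairpin series. Whether this change differed from that in Nons was tested directly: the contrast was 1.55 ± 0.36 (adjusted p = 0.0991) for *Smarcc1* and 1.42 ± 0.36 (adjusted p = 0.356) for *Smarca4*, neither past the threshold. For *Smarcc1* it was called in 3 of 13 alternatives (adjusted p 0.0377 to 0.635 over the 13), with series as blocks (1.55, adjusted p = 0.0423), with the length correction (1.41, adjusted p = 0.0490) and without the smallest library, Smarca4.4 on day 5 (1.55, adjusted p = 0.0377). The step from day 5 to day 6, -0.43 ± 0.14 (adjusted p = 0.0313), was called in 8 of 13 alternatives and missed the threshold with no filter (0.0818), with quantile normalization (0.0893), without Smarcc1.6 (0.0680), without Smarcc1.7 (0.117) and without Smarca4.6 (0.168). From day 6 to day 7 it was 0.36 ± 0.14 (adjusted p = 0.0689), called without Smarca4.4 on day 5 (0.0301), with quantile normalization (0.0370) and with series as blocks (0.0439). *Aire* overlaps the start of the *Dnmt3l* entry on the opposite strand over 1664 bases, at 36.1 to 138 rpm (median 78.0). It is not known here whether strand was used in counting, so reads of 1 may count for the other.

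**Figure D4:**
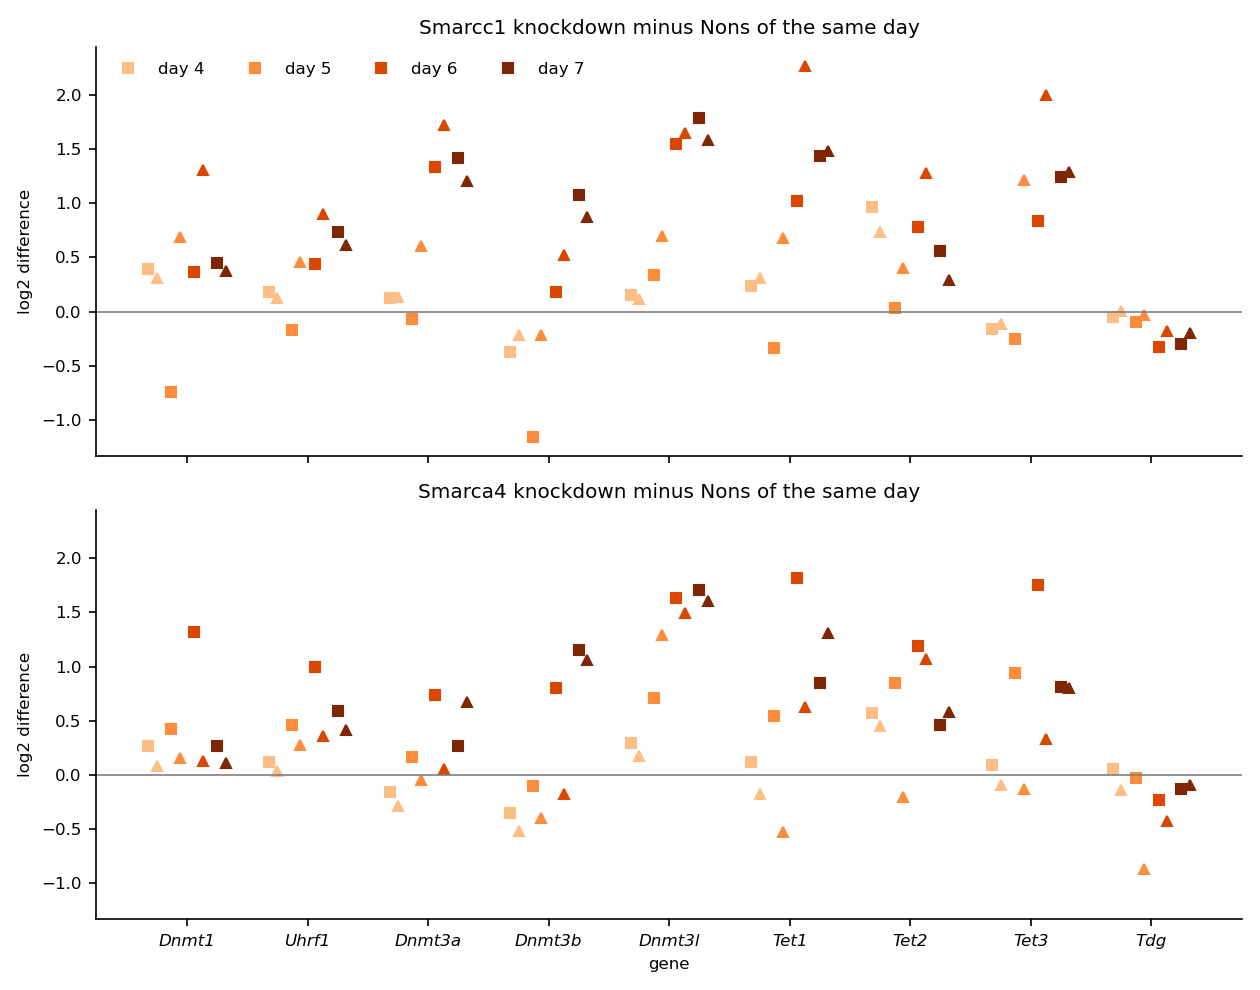
Log2 difference of each knockdown library from the Nons library of its day (0 is Nons), for 9 genes and days 4 to 7; squares are Smarcc1.6 or Smarca4.4 and triangles Smarcc1.7 or Smarca4.6. *Dnmt3l* was above 0 in 8 of 8 libraries of both knockdowns, and the day 6 values of Smarcc1.7 and Smarca4.4 were the highest for *Dnmt1*, *Uhrf1*, *Dnmt3a*, *Tet1*, *Tet2* and *Tet3*.

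Of the TET enzymes, which oxidise methylated cytosine, *Tet1* measured 458 rpm on day 4, 168 on day 5, 36.3 on day 6 and 31.2 on day 7 in Nons. In *Smarcc1* knockdown it measured 539 and 567 rpm on day 4, 134 and 270.4 on day 5, 73.7 and 175 on day 6 and 84.5 and 87.6 on day 7. In *Smarca4* knockdown it measured 498 and 405 rpm on day 4, 245 and 117 on day 5, 128 and 55.8 on day 6 and 56.1 and 77.3 on day 7. All 4 hairpin libraries were above Nons on days 6 and 7, and on day 5 Smarcc1.6 and Smarca4.6 were below it. It fell from day 4 to day 7 with a log2 change of -3.11 ± 0.32 (adjusted p = 2.86e-06). The log2 change was 0.89 ± 0.30 (adjusted p = 0.0804) in *Smarcc1* and 0.57 ± 0.30 (adjusted p = 0.324) in *Smarca4* knockdown, neither past the threshold. In *Smarcc1* knockdown *Tet1* was called in 4 of 18 alternatives (adjusted p 0.000890 to 0.523): with the length correction (0.67, adjusted p = 0.00468), without Smarcc1.6 (1.19, adjusted p = 0.0395), without day 5 (1.13, adjusted p = 0.0318) and without days 5 and 6 (0.87, adjusted p = 0.000890). In *Smarca4* knockdown it was called without days 5 and 6, at 0.52 (adjusted p = 0.0197). The change from day 6 to day 7 was -0.33 ± 0.32 (adjusted p = 0.450), and -0.73 (adjusted p = 0.00322) after the length correction.

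*Tet2* measured 83.6 rpm on day 4, 27.9 on day 5, 9.93 on day 6 and 8.53 on day 7 in Nons. The *Smarcc1* hairpins gave 163 and 139 rpm on day 4, 28.6 and 36.9 on day 5, 17.1 and 24.1 on day 6 and 12.5 and 10.4 on day 7. The *Smarca4* hairpins gave 124 and 114 rpm on day 4, 50.4 and 24.2 on day 5, 22.6 and 20.8 on day 6 and 11.7 and 12.7 on day 7. It was above Nons on day 4 in all 4 hairpin libraries and below it in 1 of 16, Smarca4.6 on day 5, with mean differences on days 4 to 7 of 0.85, 0.22, 1.03 and 0.42 in *Smarcc1* and 0.51, 0.32, 1.13 and 0.52 in *Smarca4* knockdown, on the log2 scale. It fell at every step, with a log2 change from day 4 to day 7 of -3.43 ± 0.20 (adjusted p = 1.91e-08), the largest of the 9; the step from day 6 to day 7, -0.62 ± 0.20 (adjusted p = 0.0352), missed the threshold when any 1 hairpin was left out (adjusted p 0.0558 to 0.122) and with limma-voom (0.0509). Averaged over days *Tet2* was higher in *Smarcc1* knockdown, 0.63 ± 0.18 (adjusted p = 0.0442), in 8 of 8 libraries. This call was near the threshold and held in 9 of 18 alternatives (adjusted p 0.00207 to 0.237). It was lost with series as blocks (0.63, adjusted p = 0.216), with the length correction (0.40, adjusted p = 0.0821), with a mean of at least 10 rpm (0.0666), with quantile normalization (0.0805), without Smarcc1.6 (0.0773) or Smarcc1.7 (0.176), and without day 4 (0.237), day 6 (0.228) or day 7 (0.176). In *Smarca4* knockdown the change was of like size, 0.62 ± 0.18 (adjusted p = 0.0653), in 7 of 8 libraries, and was not called. It was called without Smarca4.4 on day 5 (0.0452), without day 5 (0.0115), without days 5 and 6 (0.0108) and with the length correction (0.0387). The direct contrast between the knockdowns was 0.011 ± 0.15 (adjusted p = 0.984).

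*Tet3* measured 20.5 rpm on day 4, 11.7 on day 5, 7.95 on day 6 and 15.5 on day 7 in Nons. With Smarcc1.6 and Smarcc1.7 it was at 18.3 and 18.8 rpm on day 4, 9.79 and 27.1 on day 5, 14.2 and 31.7 on day 6 and 36.7 and 37.9 on day 7. With Smarca4.4 and Smarca4.6 it was at 21.7 and 19.2 rpm on day 4, 22.4 and 10.7 on day 5, 26.8 and 9.97 on day 6 and 27.2 and 27.1 on day 7. The 5 libraries were close on day 4, and on day 7 all 4 hairpin libraries were above Nons, while on days 5 and 6 the hairpins of each knockdown lay far apart. Smarcc1.6 and Smarca4.6 were the low ones on those days, the libraries with low values of long genes. *Tet3* did not pass the test from day 4 to day 7, 0.34 ± 0.36 (adjusted p = 0.424), or under any of the 13 alternatives, although day 7 was 125% to 201% of day 4 in the 4 hairpin series and 75.8% in Nons. The knockdown changes, 0.76 ± 0.33 (adjusted p = 0.192) and 0.56 ± 0.33 (adjusted p = 0.385), were not called; without days 5 and 6 they were 0.56 (adjusted p = 0.00190) and 0.40 (adjusted p = 0.0177). The step from day 6 to day 7 was 0.84 ± 0.36 (adjusted p = 0.0952), called with series as blocks (0.84, adjusted p = 0.0438) and without Smarcc1.7 (1.02, adjusted p = 0.0464).

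The fall of *Tet1* and the steadier level of *Tet3* brought them together: per kilobase of exon, *Tet1* was 16.3 to 23.2 times *Tet3* on day 4, 7.70 to 11.1 times on day 5, 3.52 to 4.33 times on day 6 and 1.56 to 2.21 times on day 7. These 4 ranges did not overlap. Nons lay among the hairpin libraries on day 4, was the highest of 5 on day 5 and the lowest of 5 on days 6 and 7.

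*Tdg*, the glycosylase that removes oxidised bases, measured 52.3 rpm on day 4, 58.8 on day 5, 59.6 on day 6 and 67.0 on day 7 in Nons. In *Smarcc1* knockdown it measured 50.4 and 52.4 rpm on day 4, 54.9 and 57.8 on day 5, 47.4 and 52.6 on day 6 and 54.5 and 58.6 on day 7. In *Smarca4* knockdown it measured 54.2 and 47.5 rpm on day 4, 57.8 and 32.2 on day 5, 50.8 and 44.2 on day 6 and 61.3 and 62.9 on day 7. It was the steadiest of the 9 genes, between 32.2 and 67.0 rpm over 20 libraries, and the lowest value, of Smarca4.6 on day 5, stood apart from the other 4 of its day. The log2 change from day 4 to day 7 was 0.26 ± 0.15 (adjusted p = 0.155), called in 1 of 13 alternatives (without Smarca4.4 on day 5, adjusted p = 0.0346). It was below same-day Nons in 7 of 8 libraries of each knockdown, with changes of -0.15 ± 0.14 (adjusted p = 0.589) and -0.23 ± 0.14 (adjusted p = 0.410), not called; the latter was -0.34 (adjusted p = 0.0491) without Smarca4.4 on day 5.

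Levels can be compared between genes only per length. In rpm per kilobase of exon, the medians over the 5 libraries of day 4 were 549 for *Dnmt3l*, 232 for *Dnmt3b*, 152 for *Uhrf1*, 63.5 for *Dnmt3a*, 51.8 for *Dnmt1*, 32.6 for *Tet1*, 14.4 for *Tdg*, 13.3 for *Tet2* and 1.63 for *Tet3*. This order was the same in each of the 5 libraries, apart from *Tdg* and *Tet2*, which changed places. On day 7 the medians were 260.0 for *Dnmt3l*, 60.8 for *Dnmt3b*, 50.8 for *Uhrf1*, 20.1 for *Dnmt1*, 16.9 for *Tdg*, 7.92 for *Dnmt3a*, 5.05 for *Tet1*, 2.30 for *Tet3* and 1.26 for *Tet2*. *Dnmt3a* thus moved from place 4 to place 6 in all libraries and *Tet2* to place 9, while on day 7 *Dnmt3b* and *Uhrf1*, and *Dnmt1* and *Tdg*, changed places between libraries. The GENCODE exons give these lengths, and for *Tet1*, *Tet2* and *Tet3* the annotated gene starts differ from those of the deposited table.

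RefSeq promoters (build GRCm38.p6, 250 bases before to 50 after the start) were matched for all 9 genes. *Dnmt1*, *Dnmt3a*, *Dnmt3l* and *Uhrf1* have 2 or 3 listed starts, and values per gene do not tell which was used; the start listed for *Tet1* lies 11794 bases from that of its entry. Those of *Dnmt3b*, *Tet2*, *Tet3* and *Tdg*, each with 1 listed start within 10 bases of its entry, are shown as a pair that fell and a pair that did not pass the test over days 4 to 7. Capitals mark matches to the motifs GGGCGG (GC box), CCAAT, TTTGGCGC and TTTCCCGC (forms of the E2F site), ATTTGCAT (octamer) and CACGTG (E-box), searched on both strands.
Dnmt3b, chr2:153649199-153649498, strand +: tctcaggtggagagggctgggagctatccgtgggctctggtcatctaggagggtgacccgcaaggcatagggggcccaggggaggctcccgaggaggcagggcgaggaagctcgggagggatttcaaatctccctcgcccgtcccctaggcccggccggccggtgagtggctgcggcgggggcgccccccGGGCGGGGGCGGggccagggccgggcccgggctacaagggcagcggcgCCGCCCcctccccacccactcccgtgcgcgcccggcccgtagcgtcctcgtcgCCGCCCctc
Tet2, chr3:133544341-133544640, strand -: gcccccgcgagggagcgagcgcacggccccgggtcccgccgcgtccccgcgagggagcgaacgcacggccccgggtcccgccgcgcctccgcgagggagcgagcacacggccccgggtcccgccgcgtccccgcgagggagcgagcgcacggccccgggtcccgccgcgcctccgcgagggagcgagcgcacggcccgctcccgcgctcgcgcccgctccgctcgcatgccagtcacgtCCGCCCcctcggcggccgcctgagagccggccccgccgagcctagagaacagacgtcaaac
Tet3, chr6:83441629-83441928, strand -: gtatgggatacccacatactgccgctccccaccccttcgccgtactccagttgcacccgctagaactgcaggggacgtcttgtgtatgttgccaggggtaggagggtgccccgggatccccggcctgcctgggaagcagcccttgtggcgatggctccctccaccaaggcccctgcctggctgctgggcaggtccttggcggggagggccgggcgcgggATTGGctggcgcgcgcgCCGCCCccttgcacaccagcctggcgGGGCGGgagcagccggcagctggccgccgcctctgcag
Tdg, chr10:82629588-82629887, strand +: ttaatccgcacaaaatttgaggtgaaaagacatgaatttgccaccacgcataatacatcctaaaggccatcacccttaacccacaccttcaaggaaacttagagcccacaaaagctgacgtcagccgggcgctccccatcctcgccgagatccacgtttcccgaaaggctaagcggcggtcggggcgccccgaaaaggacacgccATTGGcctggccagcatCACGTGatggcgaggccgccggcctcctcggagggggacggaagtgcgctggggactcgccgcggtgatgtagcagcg
The *Dnmt3b* promoter held 4 matches to the GC box, *Tet2* 1, *Tet3* 2 and *Tdg* 0 (among the others, *Dnmt3a* 6, *Dnmt3l*, *Uhrf1* and *Tet1* 1 each and *Dnmt1* 0), and the share of all 32851 promoters of this length with a match was 35.7%. CCAAT matched once in *Tet3* and once in *Tdg* (37.4% of all promoters), but also 5 times in *Dnmt1* and 3 times in *Uhrf1*, which fell, and CACGTG once in *Tdg* (7.15%). The E2F forms (0.514% and 1.07%) and the octamer (1.74%) matched in none of the 9. The 4 promoters held 30, 57, 22 and 26 CpGs, more than 88.3%, 99.8%, 76.9% and 83.1% of all promoters (median 7). Among the other genes that fell, the matched promoters of *Dnmt1*, *Dnmt3l*, *Uhrf1* and *Tet1* held 2, 6, 12 and 17 CpGs and that of *Dnmt3a* 46. Genes that fell thus lay on both sides of *Tet3* and *Tdg*. A match is a run of letters, and DNA methylation was not measured here.

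The third question was whether the change from day 4 to day 7 differed between a knockdown and Nons. By limma, 0 of 9 genes were called in *Smarcc1* (0.459% of all genes tested) and 0 of 9 in *Smarca4* (0.0827%). At an unadjusted p under 0.05 there were 3 in *Smarcc1*, *Dnmt3a*, *Dnmt3b* and *Dnmt3l*, and 2 in *Smarca4*, *Dnmt3b* and *Dnmt3l*; limma-voom called 0 of 9 in both. The contrasts rest on Nons of days 4 and 7, 1 library each, and their standard errors were large (0.36 for *Dnmt3l* to 0.93 for *Tet3*), so only large differences could be called. The median of the 9 contrasts was 1.18 in *Smarcc1* and 0.69 in *Smarca4*, beside 0.14 and 0.057 over all genes tested.

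Genes that work with these enzymes or act on them were counted from lists. The shares of all genes tested called were 10.6% in *Smarcc1* knockdown, 6.71% in *Smarca4* knockdown and 64.5% from day 4 to day 7. The counts of all lists come from the fit without blocks for series and were not made with blocks. Under that fit more genes were called in the knockdowns. The lists were chosen with earlier results of these data known, so setting their counts beside these shares is a description and not a test. Of 11 tested genes that act for or against the upkeep or targeting of methylation, 2 were higher in each knockdown, *Dppa3* and *Zfp57*. *Dppa3*, whose protein keeps UHRF1 off chromatin, was higher by 1.46 ± 0.24 (adjusted p = 0.00197) in *Smarcc1* and 1.13 ± 0.24 (adjusted p = 0.0157) in *Smarca4* knockdown, in 8 of 8 libraries of each, within a range of 8.04 to 94.3 rpm. Over days 4 to 7 it rose (1.54 ± 0.27, adjusted p = 0.000234), as did *Uhrf2*, and the other 9 fell, among them *Hells* (-2.35 ± 0.16, adjusted p = 6.47e-08), which encodes a remodeller needed for methylation, and *Trim28*, the partner of ZFP57 at imprinted sites. The list's median log2 change was 0.27 in *Smarcc1* knockdown, 0.23 in *Smarca4* knockdown and -1.11 from day 4 to day 7.

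Of 10 genes listed as readers of methylated CpGs or their relatives, limma called 0 in either knockdown. At an unadjusted p under 0.05 there were 0 in *Smarcc1* and 0 in *Smarca4*. From day 4 to day 7, *Zbtb4* (3.54 ± 0.30, adjusted p = 4.69e-07) and *Mbd2* (0.91 ± 0.13, adjusted p = 6.52e-05) rose, and *Mbd3* fell; the median was 0.16. Of 8 tested TET partners and suppliers of their cofactor, 0 were called in either knockdown (0 and 2 at an unadjusted p under 0.05), and over the days 2 rose and 4 fell (64.5% of all genes tested were called), with *Qser1* changing most (-1.43 ± 0.32, adjusted p = 0.00147). Among 13 genes listed for base excision repair or linked to it, the same held for the knockdowns (0 called, 2 and 2 unadjusted). Over the days 4 rose and 6 fell, a share near the same 64.5%. They were led by *Gadd45b* (4.08 ± 0.16, adjusted p = 1.11e-09) and *Ung* (-2.32 ± 0.15, adjusted p = 4.47e-08). All 9 genes of methyl donor supply fell over the days, with a median of -1.15, *Mat2a*, which encodes the subunit that makes the methyl donor, the most (-2.44 ± 0.18, adjusted p = 1.58e-07). In the knockdowns 1 of these 9 was called in each, *Shmt1* higher in *Smarcc1* (0.42 ± 0.10, adjusted p = 0.0212) and *Shmt2* lower in *Smarca4* (-0.47 ± 0.12, adjusted p = 0.0330).

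Germline genes whose promoters are silenced by methylation were followed as 12 genes, all tested. Of these, 8 were higher in *Smarcc1* and 4 in *Smarca4* knockdown, and 0 were lower in either (10.6% and 6.71% of all genes tested were called). The medians were 0.63 and 0.51, beside 0.064 and 0.064 over all genes tested. *Hormad1*, which acts in meiosis, measured 140.4 rpm on day 4, 64.0 on day 5, 16.6 on day 6 and 5.01 on day 7 in Nons. The *Smarcc1* hairpins gave 169 and 174 rpm on day 4, 165 and 73.1 on day 5, 56.1 and 48.9 on day 6 and 32.9 and 28.4 on day 7. The *Smarca4* hairpins gave 160.5 and 188 rpm on day 4, 76.1 and 99.0 on day 5, 21.5 and 40.5 on day 6 and 14.6 and 20.6 on day 7. Each hairpin library was above Nons of its day, with log2 changes of 1.33 ± 0.22 (adjusted p = 0.00180) and 0.84 ± 0.22 (adjusted p = 0.0383). *Mael*, which acts in transposon silencing in germ cells, measured 37.5 rpm on day 4, 56.0 on day 5, 55.5 on day 6 and 34.6 on day 7 in Nons. With Smarcc1.6 and Smarcc1.7 it was at 61.7 and 51.7 rpm on day 4, 113 and 63.2 on day 5, 104 and 69.3 on day 6 and 83.8 and 71.0 on day 7. With Smarca4.4 and Smarca4.6 it was at 55.2 and 66.5 rpm on day 4, 106 and 124 on day 5, 94.3 and 163 on day 6 and 121 and 116 on day 7. *Mael* was above Nons in 16 of 16 hairpin libraries, higher in *Smarca4* knockdown by 1.17 ± 0.19 (adjusted p = 0.00297) and called in *Smarcc1* knockdown too.

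The other germline genes called with all differences of 1 sign and the largest changes were *Dazl* (0.91 ± 0.17, adjusted p = 0.00415), *Tex19.1* (0.88 ± 0.19, adjusted p = 0.00953) and *Sycp1* (0.85 ± 0.21, adjusted p = 0.0229) in *Smarcc1*, and *Taf7l* (0.76 ± 0.14, adjusted p = 0.00588) and *Ddx4* (0.69 ± 0.12, adjusted p = 0.00525) in *Smarca4* knockdown. Over the days 6 of the 12 fell and 3 rose, a share called near the 64.5% of all genes tested, with a median of -0.62; *Dazl* (-3.67 ± 0.19, adjusted p = 6.43e-09) and *Hormad1* (-3.54 ± 0.24, adjusted p = 6.54e-08) fell most. The summed level of the 12, in which *Ddx4* had the highest median, was 966, 432, 291 and 221 rpm in Nons on days 4 to 7. The lower and higher hairpin of each day gave 1368 and 1484, 449 and 844, 433 and 487 and 445 and 459 rpm in *Smarcc1* and 1265 and 1378, 537 and 564, 374 and 619.9 and 459 and 537 rpm in *Smarca4* knockdown. The sum was above Nons in every hairpin library. Whether the promoters of these genes differed in methylation was not tested.

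**Figure D5:**
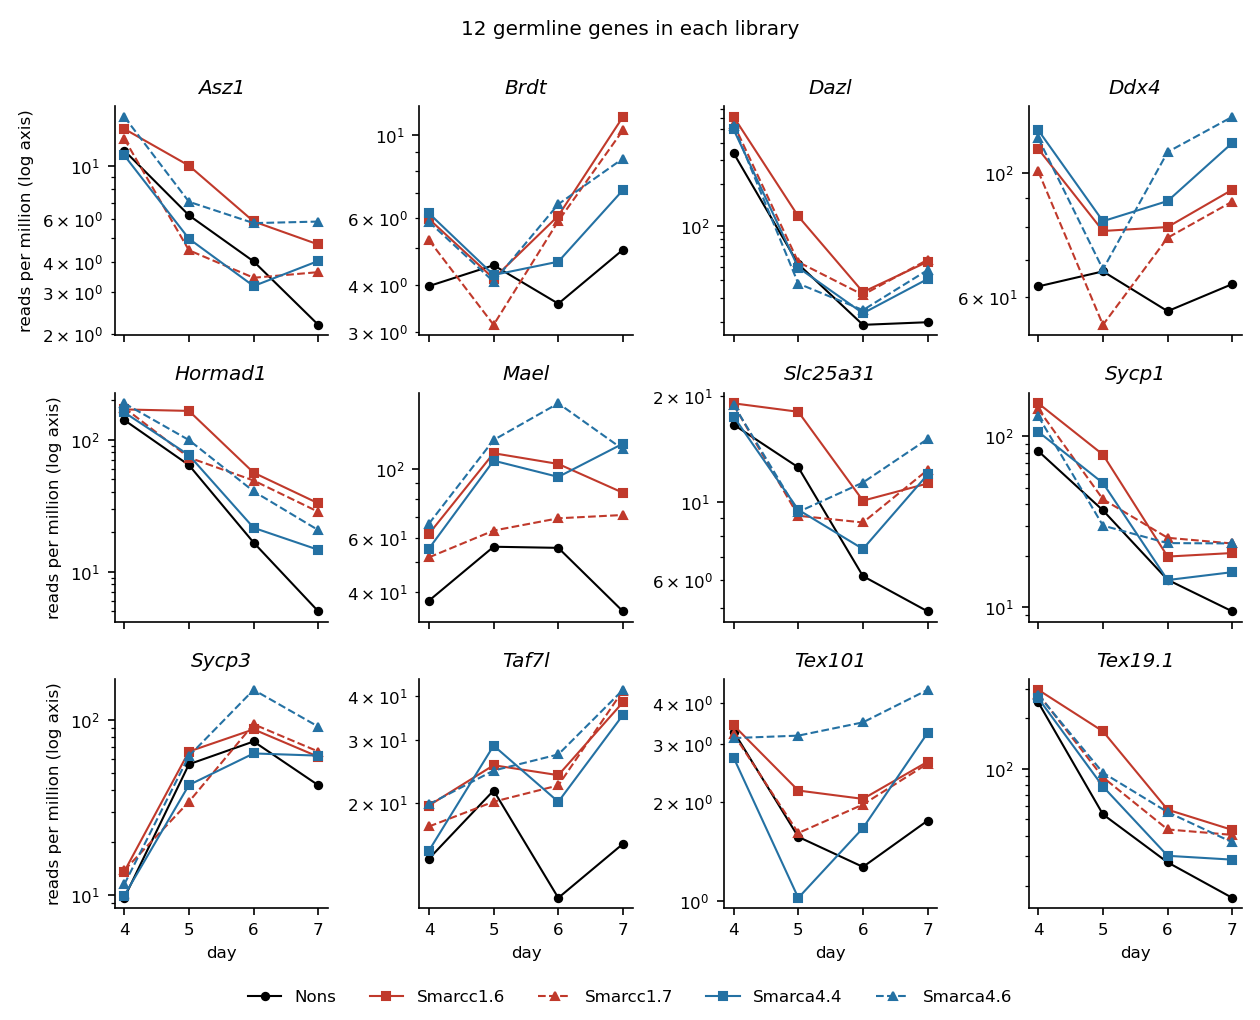
The rpm (log axis) of 12 germline genes on days 4 to 7, 1 point per library and 1 line per series. *Hormad1* and *Mael* were above Nons in all 16 hairpin libraries; *Dazl*, *Hormad1*, *Sycp1* and *Tex19.1* fell with the days, while *Sycp3*, *Taf7l* and *Brdt* rose.

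Markers of cell state were counted from lists too. Of 8 naive pluripotency markers, 6 were higher in *Smarcc1* and 4 in *Smarca4* knockdown (medians 1.30 and 0.80; 10.6% and 6.71% of all genes tested were called). Over the days 6 of 8 fell, a share called near the 64.5% of all genes tested. *Klf2* was higher by 2.12 ± 0.17 (adjusted p = 8.74e-06) and 1.65 ± 0.17 (adjusted p = 0.000262), and *Esrrb* by 1.84 ± 0.19 (adjusted p = 6.90e-05) and 1.24 ± 0.19 (adjusted p = 0.00181). Their summed level, in which *Nanog* had the highest median, was 330.4, 166, 171 and 148 rpm in Nons on days 4 to 7. The lower and higher hairpin of each day gave 621 and 756, 268 and 327, 331 and 365 and 297 and 331 rpm in *Smarcc1* and 513 and 545, 257 and 318, 302 and 321 and 233 and 257 rpm in *Smarca4* knockdown. The sum was above Nons throughout, and 0 of the 8 were without reads.

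Of 5 formative and primed epiblast markers, 2 were lower in *Smarcc1* (*Fgf5* and *Otx2*) and 3 in *Smarca4* knockdown (with *Fgf15*); their sum, led by *Pou3f1*, was 351, 406, 236 and 148 rpm in Nons, 172 and 211, 154 and 277, 165 and 219 and 150.5 and 158 rpm in *Smarcc1* and 209.9 and 216, 319 and 366, 158 and 253 and 117 and 159 rpm in *Smarca4* knockdown, below Nons in all hairpin libraries of days 4 and 5. Of 5 general pluripotency markers, 1 was higher in *Smarcc1* (*Sox2*, 0.45 ± 0.11, adjusted p = 0.0188) and 0 in *Smarca4* knockdown (1 at an unadjusted p under 0.05), and all 5 fell over the days; *Pou5f1*, their most abundant, was at 131 to 1607 rpm. Of 10 proliferation markers, 1 (*Mcm6*) was higher in *Smarcc1* and 0 in *Smarca4* knockdown (1 unadjusted), and 6, all *Mcm* genes, fell over the days. The sum of the proliferation markers, led by *Top2a*, was 4742, 4393, 2893 and 2759 rpm in Nons on days 4 to 7, 5049.7 and 5151, 3963 and 4247, 3237 and 3637 and 3046 and 3093 rpm in *Smarcc1* and 5007 and 5125, 4213 and 4712, 3191 and 3598 and 2639 and 2943 rpm in *Smarca4* knockdown, above Nons in all hairpin libraries of days 4 and 6. The part of cell state or of dividing cells in the results for the 9 genes was not tested.

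Markers of other cell types were also followed. Of 5 fibroblast or feeder markers, 2 were higher (*Col1a1* and *Pdgfra*) and *Dcn* lower in *Smarcc1*, and *Dcn* alone was lower in *Smarca4* knockdown; their sum was 13.4, 12.1, 16.9 and 52.8 rpm in Nons on days 4 to 7, 7.76 to 123 rpm in *Smarcc1* and 7.34 to 42.7 rpm in *Smarca4* knockdown, highest on day 7 in each, and *Thy1* had the highest median (4.56 rpm). Of 3 tested markers of primitive endoderm, *Gata4* was called higher in both knockdowns and *Pdgfra* in *Smarcc1*. The log2 change was above 0 for 2 of the 3 in each knockdown. The sum of all 6 listed, led by *Dab2*, was 5.42, 8.51, 15.8 and 40.4 rpm in Nons on days 4 to 7. The hairpins gave 7.17 and 7.57, 8.496 and 11.95, 15.4 and 27.7 and 40.45 and 42.8 rpm in *Smarcc1* knockdown. In *Smarca4* knockdown they gave 4.18 and 4.67, 9.002 and 10.4, 13.8 and 23.5 and 34.8 and 35.4 rpm. The *Smarca4* sums were below Nons on days 4 and 7, above it on day 5 and on both sides on day 6. Of 4 tested trophoblast markers, *Tfap2c* was higher in both and *Krt8* lower in *Smarcc1* knockdown; *Krt8* rose over the days to make up most of the sum (40.9, 50.4, 530.0 and 1591 rpm in Nons on days 4 to 7), while the median of *Elf5* was at most 3 reads. The hairpins gave 47.0 and 53.3, 56.6 and 56.8, 201 and 245 and 697 and 806 rpm in *Smarcc1* and 47.5 and 52.2, 77.2 and 101, 427 and 475 and 861 and 1370.1 rpm in *Smarca4* knockdown, below Nons in all libraries of days 6 and 7 and above it in all of days 4 and 5. Among 4 neural markers, *Sox1* was higher in both (2.40 ± 0.33 (adjusted p = 0.000548) and 2.33 ± 0.33 (adjusted p = 0.00123)), with *Nes* the most abundant. The neural sum was 65.7, 80.0, 133 and 135 rpm in Nons on days 4 to 7, 102 and 118, 73.9 and 98.7, 97.6 and 135 and 119.9 and 126 rpm in *Smarcc1* and 84.9 and 94.0, 78.3 and 93.7, 57.8 and 182 and 99.1 and 104 rpm in *Smarca4* knockdown. These markers were thus present from day 4. Over days 4 to 7 *Nes* rose and *Tubb3* fell. The 1 tested mesoderm marker, *Hand1*, was higher in *Smarca4* knockdown (1.35 ± 0.31, adjusted p = 0.0215), and the median of *Mesp1* was at most 3 reads. The blood markers were near 0, at most 1.46 rpm in sum, with 0 tested and 1 without reads in any library.

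As a description, the 3 genes most like each of the 9 over the 20 libraries, by Pearson's r of log2 rpm among 9504 genes, share the days and the library differences above. For *Dnmt1* they were *Pik3r4*, *Slc35a4* and *Sf3a1* (0.986, 0.986 and 0.984), and for *Uhrf1* *Chadl*, *L3mbtl2* and *Pnpla6* (0.993, 0.988 and 0.983). *Dnmt3a* was closest to *Nefh*, *Sox2* and *Bend3* (0.986, 0.979 and 0.976), *Dnmt3b* to *Lyar*, *Pim2* and *D19Bwg1357e* (0.966, 0.961 and 0.954), and *Dnmt3l* to *Alas1*, *Piwil2* and *Six4* (0.972, 0.936 and 0.934). For the TET genes they were *Polr3b*, *Ftsj3* and *Cdk12* for *Tet1* (0.981, 0.979 and 0.977), *9930104L06Rik*, *Utp6* and *Sfxn2* for *Tet2* (0.968, 0.967 and 0.966), and *Usp49*, *Magi3* and *Abl1* for *Tet3* (0.962, 0.943 and 0.929). *Tdg* had the loosest, *Trove2*, *Hook1* and *Arhgap5* (0.859 to 0.863). Among the 9 themselves, *Tet1* and *Tet2* correlated at 0.949, *Dnmt3a* and *Tet1* at 0.940 and *Dnmt3a* and *Dnmt3b* at 0.911, whereas *Tet3* and *Tet2* were at 0.002 and *Tdg* was below 0 with all except *Tet3* (0.323).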

How the data were processed

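RNA from 20 libraries of differentiating mESCs was used; groups and days came from the sample titles. The authors aligned reads to mm10 (HISAT2 is named in the labels) and deposited log2 values of reads per gene, scaled to the reads of the library. Whole reads were recovered from the lowest value of each library, taken as 0.9 of a read. Entries whose mean on this scale was 0 or more (13296) were fitted in R 4.3.3 with limma 3.58.1 (lmFit, eBayes with trend), with a mean for each of 12 combinations of group and day and 8 residual degrees of freedom from hairpin pairs. Contrasts were averaged over days or groups, and p-values were adjusted by Benjamini-Hochberg over all genes tested, with a threshold of 0.05. Because hairpins are the replicates, p-values measure the spread between hairpins and not between Nons cultures.

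The genes named are all 9 members, both targets, up to 4 called genes of each list with the largest log2 change whose same-day differences (for days, differences within a series) all had 1 sign, and the 3 genes most like each member among those whose mean was 3 or more. Other list genes are named where few were called, after their values were seen. The members and lists were chosen with earlier results of these data known. Exon lengths came from GENCODE M21 and promoters from RefSeq (GRCm38.p6). The fit was also run on simulated data, and the outcome is not reported here. Alternatives were no filter, a mean of at least 10 rpm, 1 added to rpm, centring on the median gene and quantile normalization. Further ones were limma-voom on recovered reads, a block for each series, and leaving out the smallest library, each hairpin and each day. The length correction and leaving out days 5 and 6 together were chosen after seeing the data. The 4 samples of a further Nons series were not used here. The result of 1 list gene is not reported here. Python 3.11.15, numpy 2.4.6 and pandas 2.3.3 were used for the rest.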

Additional observations from a re-analysis of the deposited data

Results flagged for a closer look

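A sample far from the others was looked for in 54 groups, the 8 same-day differences of each knockdown and the 5 libraries of each day for each of the 9 genes, and 5 groups had one; in a group of like samples, chance passes the limit used about 1 time in 20. The groups by day, which gave 4 of the 5, were left out for a time and put back after their results were seen, and they join libraries of different knockdowns. In the Smarca4 knockdown, the difference of *Dnmt1* from Nons in Smarca4.4 on day 6, 1.32 on the log2 scale, was far above the other 7 (at most 0.43). It was set against Nons of day 6, where long genes were low, and the part of that in the value was not tested. Within a day, *Dnmt3b* in Nons on day 7, at a log2 rpm of 6.98, was far below the other 4 libraries (7.86 to 8.13). *Dnmt3l* in Nons was far below them on day 6, at 7.54 (9.03 to 9.19), and on day 7, at 7.83 (9.42 to 9.61). *Tdg* in Smarca4.6 on day 5, at 5.01, was far below the others (5.78 to 5.88). The days hold libraries of 3 groups, so a Nons library far from 4 hairpin libraries may be a difference between groups or of that library, which cannot be told apart with 1 Nons library per day.

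Differences between groups were found by their own tests in 4 places. *Dnmt3a* was higher in *Smarcc1* than in *Smarca4* knockdown, with a log2 change of 0.63; with series as blocks the adjusted p was 0.152 and the call was lost. Between the knockdowns 544 genes were called, and 105 with series as blocks. The change from day 4 to day 7 differed from that in Nons for 61 genes in *Smarcc1* and for 11 in *Smarca4* knockdown, none of them among the 9 genes, where limma found 3 and 2 at an unadjusted p under 0.05.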

How the results depend on the processing

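The falls of 7 of the 9 genes from day 4 to day 7 and the higher *Dnmt3l* in both knockdowns kept their direction and were called under every alternative run (13 and 18). The number of genes called from day 4 to day 7 was 5816 to 10806 over 13 alternatives and from day 5 to day 6 it was 2861 to 5209, within 1.5 times their values of 8575 and 4288. Calls of *Dnmt3a*, *Tet2* and *Tet1* in *Smarcc1* knockdown and of single steps between days depended on the setting, with values given in the text above; the cause was not tested. The length correction and leaving out days 5 and 6 were chosen after seeing the data.

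With a mean of at least 10 rpm the number of genes called was 579 for *Smarcc1* against Nons, 324 for *Smarca4* against Nons, 241 for *Smarcc1* against *Smarca4*, 3420 for day 5 against day 4, 11 for the change of *Smarcc1* from day 4 to day 7 against Nons and 0 for the change of *Smarca4* from day 4 to day 7 against Nons. With series as blocks the number of genes called was 605 for *Smarcc1* against Nons, 258 for *Smarca4* against Nons, 105 for *Smarcc1* against *Smarca4*, 175 for the change of *Smarcc1* from day 4 to day 7 against Nons and 20 for the change of *Smarca4* from day 4 to day 7 against Nons. Without day 6 the number of genes called was 793 for *Smarcc1* against Nons, 431 for *Smarca4* against Nons and 173 for *Smarcc1* against *Smarca4*. Without day 7 the number of genes called was 379 for *Smarcc1* against Nons, 132 for *Smarca4* against Nons and 56 for *Smarcc1* against *Smarca4*. Without days 5 and 6 the number of genes called was 3753 for *Smarcc1* against Nons, 1918 for *Smarca4* against Nons and 1731 for *Smarcc1* against *Smarca4*. Without day 4 the number of genes called was 497 for *Smarca4* against Nons and 327 for *Smarcc1* against *Smarca4*. Without the smallest library, Smarca4.4 on day 5, the number of genes called was 1067 for *Smarcc1* against *Smarca4*. With the length correction the number of genes called was 853 for *Smarcc1* against *Smarca4* and 125 for the change of *Smarcc1* from day 4 to day 7 against Nons. With 1 added to rpm the number of genes called was 19 for the change of *Smarcc1* from day 4 to day 7 against Nons and 1 for the change of *Smarca4* from day 4 to day 7 against Nons. With quantile normalization the number of genes called was 6 for the change of *Smarcc1* from day 4 to day 7 against Nons and 0 for the change of *Smarca4* from day 4 to day 7 against Nons. With no filter the number of genes called was 1 for the change of *Smarca4* from day 4 to day 7 against Nons. With limma-voom the number of genes called was 4 for the change of *Smarca4* from day 4 to day 7 against Nons. Fewer genes enter the test with the higher filter. Leaving out a day removes samples, but the counts did not all fall. Without day 5 they were 1894 for *Smarcc1* against Nons, 964 for *Smarca4* against Nons and 670 for *Smarcc1* against *Smarca4*. With all days they were 1412, 892 and 544. The cause of the changed counts, those with the higher filter included, was not tested.

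Some changes of genes that had not passed the test, mostly near 0, took the other sign. With the length correction the sign changed, on the log2 scale, of *Dnmt3b* to -0.021 for *Smarcc1* against Nons, of *Uhrf1* to -0.00018 and *Tet2* to -0.11 for *Smarcc1* against *Smarca4*, of *Dnmt1* to -0.16 for the change of *Smarcc1* from day 4 to day 7 against Nons, of *Dnmt1* to -0.067 and *Tet2* to -0.10 for the change of *Smarca4* from day 4 to day 7 against Nons. Without day 6 the sign changed, on the log2 scale, of *Dnmt3b* to -0.0016 for *Smarcc1* against Nons. Without day 7 the sign changed, on the log2 scale, of *Dnmt3b* to -0.21 for *Smarcc1* against Nons, of *Dnmt3b* to -0.12 for *Smarca4* against Nons, of *Dnmt1* to -0.0085 and *Uhrf1* to -0.051 for *Smarcc1* against *Smarca4*. Without day 5 the sign changed, on the log2 scale, of *Dnmt3b* to 0.017 and *Tdg* to -0.014 for *Smarcc1* against *Smarca4*. Without days 5 and 6 the sign changed, on the log2 scale, of *Dnmt3b* to 0.0071 and *Tdg* to -0.058 for *Smarcc1* against *Smarca4*. Without day 4 the sign changed, on the log2 scale, of *Uhrf1* to -0.019 and *Tet2* to -0.10 for *Smarcc1* against *Smarca4*. With quantile normalization the sign changed, on the log2 scale, of *Tet2* to -0.0052 for *Smarcc1* against *Smarca4*, of *Dnmt3b* to -0.28 for day 5 against day 4, of *Tdg* to 0.0076 for day 6 against day 5. Without the smallest library, Smarca4.4 on day 5, the sign changed, on the log2 scale, of *Dnmt3b* to -0.048 and *Tdg* to -0.12 for day 5 against day 4, of *Tet3* to 0.15 and *Tdg* to 0.13 for day 6 against day 5. With limma-voom the sign changed, on the log2 scale, of *Tdg* to 0.011 for day 6 against day 5. After centring on the median gene the sign changed, on the log2 scale, of *Dnmt1* to -0.061 for the change of *Smarcc1* from day 4 to day 7 against Nons, of *Dnmt1* to -0.033 and *Tet2* to -0.035 for the change of *Smarca4* from day 4 to day 7 against Nons. With 1 added to rpm the sign changed, on the log2 scale, of *Tet2* to -0.033 for the change of *Smarca4* from day 4 to day 7 against Nons. None of these values passed the test.

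Leaving out 1 hairpin at a time, where the lone hairpin of a group is assumed to vary like the others, gave these numbers of genes called: 843 to 1288 for *Smarcc1* against Nons, 277 to 656 for *Smarca4* against Nons, 49 to 263 for *Smarcc1* against *Smarca4*, 3179 to 5030 for day 5 against day 4, 1061 to 4031 for day 7 against day 6, 0 to 8 for the change of *Smarcc1* from day 4 to day 7 against Nons and 0 each time for the change of *Smarca4* from day 4 to day 7 against Nons. Where limma called 0 for the change from day 4 to day 7, genes at an unadjusted p under 0.05 numbered 650 for *Smarcc1* without Smarcc1.6, and for *Smarca4* 520 and 515 without a *Smarcc1* hairpin and 525 and 422 without a *Smarca4* hairpin, 243 at 10 rpm and 440 with quantile normalization; limma-voom called 64 and 4 genes on all libraries. Log2 changes that took the other sign without a hairpin ranged, over the 4 hairpins, for *Dnmt3b* -0.069 to 0.24 for *Smarcc1* against Nons, for *Dnmt3b* -0.0067 to 0.37 for *Smarca4* against Nons, for *Dnmt1* -0.23 to 0.33, *Dnmt3b* -0.29 to 0.093, *Uhrf1* -0.13 to 0.14, *Tet2* -0.13 to 0.16, *Tet3* -0.15 to 0.53 and *Tdg* -0.064 to 0.24 for *Smarcc1* against *Smarca4*, for *Dnmt3b* -0.13 to 0.13 and *Tdg* -0.086 to 0.13 for day 5 against day 4, for *Tet3* -0.092 to 0.027 and *Tdg* -0.11 to 0.10 for day 6 against day 5, for *Dnmt1* -0.0043 to 0.026, *Tet2* -0.11 to 0.13 and *Tdg* -0.18 to 0.050 for the change of *Smarca4* from day 4 to day 7 against Nons.

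Several limits apply. Nons had 1 library per day, so the comparisons cannot tell a knockdown effect from a difference of that culture. A series is the libraries of 1 hairpin, or of Nons, over the days. The labels do not state whether they came from 1 culture. Blocks for series allow for libraries of a series being alike. Low values of long genes in 5 libraries moved with most of the 9 genes. Depth did not limit these genes, which had at least 125 reads in every library. RNA levels say nothing of protein or of DNA methylation, and reads per gene do not separate isoforms.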
